A study of Mus musculus with 8 samples.

Results

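Immediate early genes and heat shock genes were described in cells that a magnetic column had held or passed. The 45 genes were taken from a fixed list of immediate early transcription factors (33 genes together with their feedback regulators) and heat shock chaperones and co-chaperones (12 genes), and they were found by symbol among the 35975 genes of the tables. Subcutaneous fibrosarcomas, connective tissue tumors grown from syngeneic cells, had been taken from wild-type C57BL/6 mice. The tumor tissue was minced and digested warm with collagenase B and DNase I, red cells were lysed, and the suspension was passed over magnetic columns. The iron positive group is the eluate, cells the column held (4 libraries), and the iron negative group is the flowthrough (4 libraries), so both groups went through the same digestion and share genotype, tumor type and host strain. Each of the tags 3L, 3R, 4R and 5L occurs once in each group, and the comparison is between the fractions of equal tag. Whether tags stand for separate animals, the age of the mice and the name of the tumor line are not given in the sources used here. The p-values of the fit on the fraction alone therefore reflect how far these libraries spread. Those of the fit that compares libraries of equal tag reflect how far the differences within tags vary. Either spread may be technical.

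Immediate early genes are transcribed soon after a signal reaches the cell, from factors that are already present, and many of them encode transcription factors of the FOS, JUN, EGR, NR4A and KLF families. Others encode the proteins that end the response: phosphatases of the DUSP family that switch off MAP kinases, ZFP36 proteins that mark short-lived mRNA for decay, and inhibitors of NF-kB. Heat shock genes are driven by HSF1 when unfolded protein builds up, and they encode chaperones of the HSP70, HSP90, chaperonin and small heat shock protein families with their co-chaperones. Both programs are known to be raised in macrophages and other cells when a tissue is taken apart by enzymes at body temperature.

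Promoter stretches of 5 members are shown because they carry elements that HSF1, CREB and NF-kB, known regulators of these genes, bind. They are RefSeq sequences (GRCm38.p6), read 5′ to 3′ along the gene, with positions counted from the transcription start. Capitals mark the heat shock element core in the 3 heat shock genes, the cAMP response element in Btg2 and the NF-kappaB decamer in Nfkbia.
Hspa1a: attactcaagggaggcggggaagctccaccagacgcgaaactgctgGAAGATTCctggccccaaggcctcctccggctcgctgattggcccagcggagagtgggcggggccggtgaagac
Hspa1b: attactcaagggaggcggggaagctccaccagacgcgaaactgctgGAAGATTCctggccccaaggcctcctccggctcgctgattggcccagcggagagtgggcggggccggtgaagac
Hspb1: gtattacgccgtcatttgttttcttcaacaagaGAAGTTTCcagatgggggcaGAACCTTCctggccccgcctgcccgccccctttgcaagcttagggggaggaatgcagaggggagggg
Btg2: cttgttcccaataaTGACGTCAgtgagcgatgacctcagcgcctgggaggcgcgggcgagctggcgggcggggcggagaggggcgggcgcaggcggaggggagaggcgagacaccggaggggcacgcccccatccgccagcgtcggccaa
Nfkbia: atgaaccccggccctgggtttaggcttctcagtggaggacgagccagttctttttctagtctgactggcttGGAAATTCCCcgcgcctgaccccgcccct
The Hspa1a stretch lies at chr17:34972187-34972306, minus strand, and that of Hspa1b at chr17:34959269-34959388, minus strand. Over these 120 bases the promoters of Hspa1a and Hspa1b are identical, each with 1 core at position -104. The Hspb1 stretch (chr5:135887769-135887888, plus strand) holds cores at -117 and -97. The Btg2 stretch (chr1:134079186-134079335, minus strand) holds its element at -166, and the Nfkbia stretch (chr12:55492648-55492747, minus strand) its decamer at -29. None of these stretches overlaps an exon of GENCODE release 21.

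Shorter sites of 30 bases are shown for Hspe1, where 3 cores overlap, and for Zfp36, where the capitals mark a CArG box, the binding site of serum response factor.
Hspe1: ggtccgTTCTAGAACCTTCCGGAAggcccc
Zfp36: caggccgccCCATAAAAGGagaaagctcct
The Hspe1 site (chr1:55088053-55088082, plus strand) is shared with the divergent promoter of Hspd1, and the Zfp36 site (chr7:28379266-28379295, minus strand) runs from -67 to -38, with its box at -58. Unlike the longer stretches, the Zfp36 site overlaps a GENCODE exon of Zfp36 itself, and the Hspe1 site overlaps an exon of Hspd1. Of the 45 members, 37 have a promoter in the RefSeq table, which gives 250 bases before and 50 bases after each start. Egr1, Egr3, Fosl1, Hsp90aa1, Hsp90ab1, Hspa8, Ier2 and Nfkbiz have no entry. The heat shock element core was searched as GAANNTTC or TTCNNGAA on both strands. It occurred in 8 of 9 heat shock members and 3 of 28 immediate early members, against 17.0% of the 27025 genes in the table. The cAMP response element, TGACGTCA, was found in Dusp1 and Btg2, that is 2 of 28 immediate early members against 2.03% of genes. A CArG box was found in Egr2, Dusp5 and Zfp36, 3 of 28 against 1.81%. The TPA response element, TGANTCA, the site of AP-1, was found in 2 of 28 immediate early members and in Bag3 among the heat shock members, against 8.97%. The NF-kappaB decamer, a motif added after the values were known, was found in 8 of 28 and 4 of 9, against 9.55%. The 4 heat shock members with the decamer are Hspd1 and Hspe1, whose promoter is shared, and Hspa1a and Hspa1b, whose printed stretches are identical. Both pairs also enter the 8 of 9 for the heat shock element core, so each count holds repeated sequences. These counts describe letters in a window of fixed length.

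Estimated counts totalled 19.04 to 24.31 M per library, and 13343 genes passed the filter on low counts, among them all 45 members. Values by library are given below in the order of the tags 3L, 3R, 4R and 5L, as CPM (counts scaled to a common library size, with TMM factors). Fold changes are on the log2 scale, iron positive minus iron negative. The TPM of the 45 members together made up 2.60, 2.75, 2.51 and 3.77% of the iron positive libraries, against 3.52, 3.09, 3.34 and 4.53% of the iron negative libraries, lower in the iron positive library of every tag. The libraries hold more than macrophages: the 15 macrophage marker genes summed to 23856 to 31915 CPM in iron positive and 31974 to 35148 CPM in iron negative libraries, and 13 of 13 endothelial markers were higher in the iron positive group in the fit on the fraction alone. In bulk RNA, fewer cells of a type and less RNA per cell cannot be told apart.

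With the fraction as the only term, edgeR's quasi-likelihood test called none of the 45 members in either direction, where it called 1133 genes higher (8.49% of genes tested) and 695 lower (5.21%). At an unadjusted p under 0.05, 3 of 45 members were higher and 6 were lower. Of the 13343 genes tested, 2279 were higher and 1868 lower at that level. The smallest adjusted p of a member was 0.060, for Zfp36. DESeq2 in the same design called 1 member higher (Fosl1; background 12.8%) and 4 lower (Nfkbia, Nfkbiz, Tnfaip3 and Zfp36; background 8.02%). The ranges of the fractions overlapped for every one of the 45 members, whereas 10.3% of genes tested were apart and lower and 11.2% were apart and higher. Libraries of equal tag deviated together, as did some of unlike tags to a lesser degree. With the tag as a block edgeR called 28 members lower and 1 higher. The background of that fit is 9.39% of genes lower and 12.8% higher. A member is said to fall or rise within tags below where it passed this blocked test.

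Within tags, 33 of 45 members (73.3%) were lower in the iron positive library of all 4 tags, against 23.9% of genes tested. Only 3 members (6.67%) were higher in all 4, namely Fosl1, Egr3 and Ier3, against 22.0% of genes tested. These shares depend on the scaling: with libraries scaled to macrophage marker genes, 5 members (11.1%) were lower and 7 (15.6%) higher in all 4 tags, against 3.55% and 46.9% of genes tested, and 6 of the 28 members called lower kept the call. The 28 genes that fell did so by 0.23 to 0.95 on the log2 scale, with a median of -0.43, and all 28 were lower in 4 of 4 tags. Over all members the median log2 fold change was -0.30, where it was -0.01 over all genes tested. The heat shock genes had a median of -0.41 with the block, and 10 of 12 fell. The immediate early genes had a median of -0.25, and 18 of 33 fell while 1 rose. Without 1 tag the blocked fit called fewer members lower: 8 without 3L, 23 without 3R, 6 without 4R and 17 without 5L. Of all genes tested in these fits, 2.32% were lower without 3L, 6.07% without 3R, 1.65% without 4R and 7.31% without 5L. Bag3, Ier5, Nfkbia, Nfkbiz and Tnfaip3 passed in each of these 4 fits. Btg1, Dusp1, Klf2, Klf6 and Zfp36l1, called lower with all tags, passed in none of them.

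**Figure D1:**
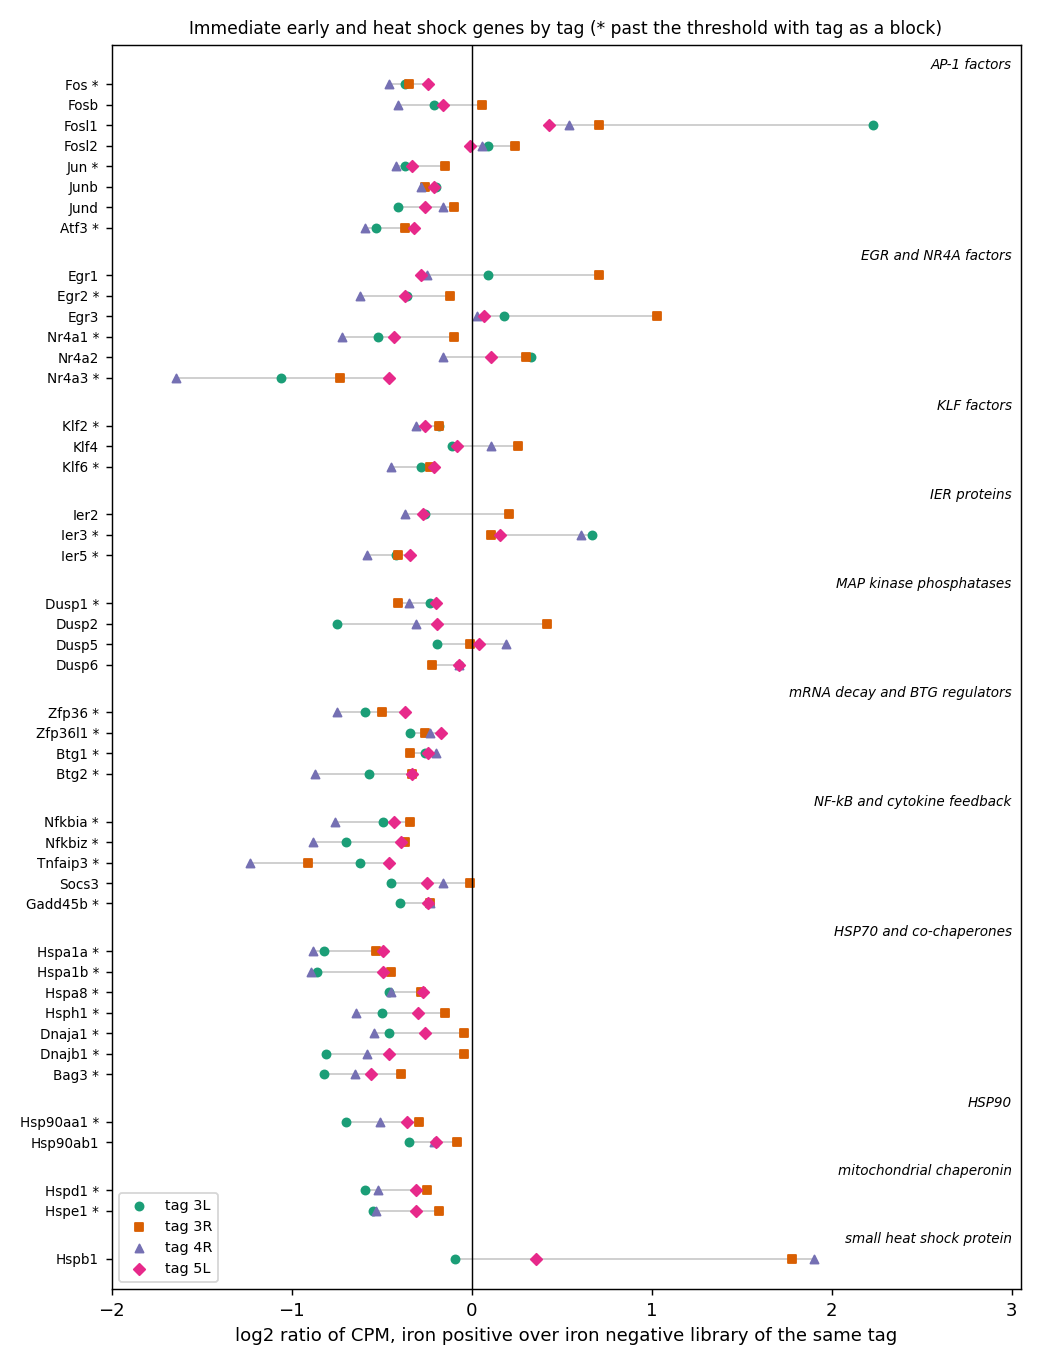
Log2 ratio of CPM (horizontal axis) between the iron positive and the iron negative library of each tag for the 45 genes, grouped by role. Each symbol is 1 tag, the grey line spans the 4 tags, and an asterisk marks genes past the threshold with the tag as a block. Of the 45 genes, 33 have all symbols left of 0 (TMM scaling), and Fosl1, Egr3 and Ier3 have all right of 0.

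HSP70 chaperones bind exposed stretches of unfolded protein, and all 7 genes of this role (Hspa1a, Hspa1b, Hspa8, Hsph1, Dnaja1, Dnajb1 and Bag3) fell within tags, with a median of -0.47, or -0.27 when libraries were scaled to the macrophage genes. Hspa1a and Hspa1b encode the inducible HSP70, and their transcripts share most of their sequence: 70.1% and 68.1% of the 31-base words of their main transcripts occur in transcripts of other genes, chiefly each other, so the split between them is uncertain. Hspa1a had 5257, 4569, 3455 and 8019 CPM in the iron positive libraries, against 9260, 6597, 6357 and 11275 CPM in the iron negative libraries. Hspa1b had 5599, 5091, 3456 and 8356 CPM in the iron positive libraries, against 10178, 6974, 6424 and 11722 CPM in the iron negative libraries. Tag 5L was highest in each fraction for this pair, and the iron positive library of 5L lay above the iron negative libraries of 3R and 4R. Hspa1a fell by 0.68 on the log2 scale within tags (SE 0.11, adjusted p = 0.00869). Hspa1b fell by 0.67 on the log2 scale within tags (SE 0.12, adjusted p = 0.0115). Because the split is uncertain the pair was also summed, and the sum kept this pattern. The pair together had 10856, 9660, 6912 and 16375 CPM in the iron positive libraries, against 19438, 13571, 12781 and 22997 CPM in the iron negative libraries. Hspa1a held 47.3 to 50.0% of the sum in every library. By length, Hspa1b was the most abundant member of its role, with 2783 ± 964 TPM in iron positive and 4213 ± 1121 TPM in iron negative libraries (SD, n = 4 each).

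Hspa8 encodes the constitutive HSP70, which serves folding in unstressed cells. Hspa8 had 4568, 3704, 3374 and 5065 CPM in the iron positive libraries, against 6295, 4489, 4619 and 6119 CPM in the iron negative libraries. The fractions overlapped, with tags 3L and 5L high in each. Hspa8 fell by 0.37 on the log2 scale within tags (SE 0.09, adjusted p = 0.0313). Of its 31-base words, 77.6% occur in other transcripts, mostly of processed copies, so its level is uncertain. Hsph1 encodes the nucleotide exchange factor HSP110. Hsph1 had 499, 424, 319 and 756 CPM in the iron positive libraries, against 705, 470.0, 496 and 929 CPM in the iron negative libraries. Again 5L was highest in each fraction. Hsph1 fell by 0.39 on the log2 scale within tags (SE 0.09, adjusted p = 0.0260).

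DNAJA1 and DNAJB1 are J-domain partners that hand clients to HSP70. Dnaja1 had 464, 422, 323 and 670.3 CPM in the iron positive libraries, against 639, 433, 469 and 801 CPM in the iron negative libraries. Dnajb1 had 376, 389.8, 284 and 679.7 CPM in the iron positive libraries, against 656, 400.4, 423 and 935 CPM in the iron negative libraries. For each gene the libraries of 3R were nearly equal, with a log2 ratio of -0.04, and those of the other tags were further apart. Dnaja1 shares 33.0% of its words with other transcripts and overlaps Smu1 on the opposite strand. Dnaja1 fell by 0.32 on the log2 scale within tags (SE 0.09, adjusted p = 0.0498). Dnajb1 fell by 0.47 on the log2 scale within tags (SE 0.12, adjusted p = 0.0353). BAG3 releases clients from HSP70 and steers them to autophagy. Bag3 had 220.4, 155, 156 and 407 CPM in the iron positive libraries, against 388, 203, 245 and 602 CPM in the iron negative libraries. In 5L the iron positive level exceeded 3 of the iron negative libraries, yet it was lower in every tag. Bag3 fell by 0.61 on the log2 scale within tags (SE 0.08, adjusted p = 0.00378). Bag3 stayed past the threshold without any 1 tag, with adjusted p from 0.00309 to 0.0324. Without the block, adjusted p of these 7 genes ran from 0.159 for Hspa1a to 0.443 for Dnaja1.

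HSP90 completes the folding of kinases and receptors, and of its cytosolic forms the inducible one fell within tags. The median of the pair was -0.34, or -0.13 under scaling to the macrophage genes, where Hsp90aa1 was not called (adjusted p = 0.138). Hsp90aa1 had 1427, 791, 619 and 1458 CPM in the iron positive libraries, against 2317, 969, 884 and 1877 CPM in the iron negative libraries. Its level differed 2.35-fold between iron positive libraries and 2.62-fold between iron negative libraries, with 3L and 5L high in each. Hsp90aa1 fell by 0.47 on the log2 scale within tags (SE 0.09, adjusted p = 0.0136). Hsp90ab1, the constitutive form, was the more abundant by length at 1185 ± 119 TPM in iron positive and 1322 ± 162 TPM in iron negative libraries (SD, n = 4 each). Hsp90ab1 had 2069, 1869, 1619 and 2106 CPM in the iron positive libraries, against 2637, 1974, 1876 and 2421 CPM in the iron negative libraries. Hsp90ab1 gave a log2 fold change of -0.21 (SE 0.08, adjusted p = 0.108), which did not pass, although it was lower in 4 of 4 tags. Words shared with other transcripts, mostly processed copies, made up 62.9% of Hsp90aa1 and 16.6% of Hsp90ab1.

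Hspd1 and Hspe1 encode HSP60 and HSP10, which form the mitochondrial chaperonin, and they lie head to head on chromosome 1 (chr1:55077835-55088243 on the minus strand and chr1:55088132-55091307 on the plus strand). Their annotated transcripts overlap on opposite strands, which the counts do not resolve, and 55.8% and 59.1% of their words occur in other transcripts. Hspd1 had 288, 214, 169.5 and 318 CPM in the iron positive libraries, against 433, 255, 243 and 395 CPM in the iron negative libraries. Hspe1 had 165, 128, 94.5 and 154 CPM in the iron positive libraries, against 240.3, 145, 137 and 191 CPM in the iron negative libraries. Both genes were highest in 3L of the iron negative fraction and lowest in 4R of the iron positive fraction. Hspd1 fell by 0.42 on the log2 scale within tags (SE 0.07, adjusted p = 0.0115). Hspe1 fell by 0.39 on the log2 scale within tags (SE 0.08, adjusted p = 0.0143). The median of the pair was -0.41, or -0.20 under scaling to the macrophage genes, where neither was called (adjusted p = 0.191 for Hspd1 and 0.259 for Hspe1).

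Hspb1, the small heat shock protein HSP25 that holds unfolded proteins and binds actin, was the heat shock gene that did not share this direction. Hspb1 had 103, 284, 233 and 217 CPM in the iron positive libraries, against 109.7, 82.5, 62.4 and 169 CPM in the iron negative libraries. It was higher in the iron positive libraries of 3R, 4R and 5L and about equal in 3L. Hspb1 gave a log2 fold change of 0.99 (SE 0.35, adjusted p = 0.0900), which did not pass. Its SE was the largest among the heat shock genes in the blocked fit, and 61.7% of its 31-base words occur in a processed copy. The summed fibroblast markers, which were 510.1, 4820, 1774 and 568 CPM in the iron positive libraries, against 135, 409.7, 236 and 154 CPM in the iron negative libraries, were likewise highest in 3R and 4R of the iron positive fraction. The part of such cells in the Hspb1 levels was not tested.

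**Figure D2:**
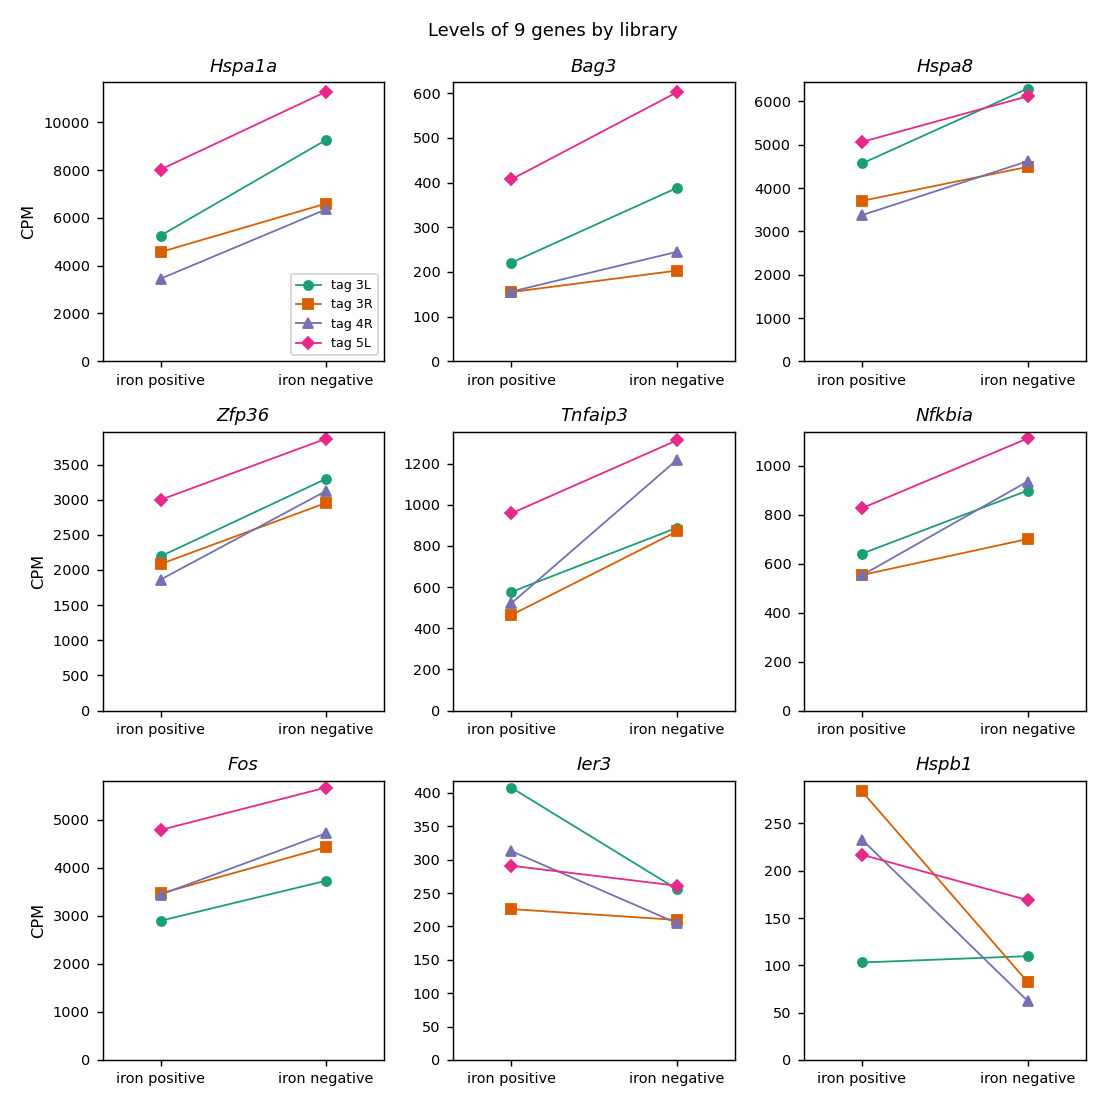
CPM (vertical axes, from 0) of 9 genes in the 4 iron positive libraries (left) and the 4 iron negative libraries (right), with a line joining the libraries of each tag. The lines of Hspa1a, Bag3, Hspa8, Zfp36, Tnfaip3, Nfkbia and Fos run upward from iron positive to iron negative in all 4 tags, those of Ier3 run downward, and Hspb1 has 1 tag, 3L, that does not follow the others.

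AP-1 is a dimer of FOS, JUN or ATF proteins, and of its 8 members Fos, Jun and Atf3 fell within tags. The median of the 8 was -0.24, or -0.03 under scaling to the macrophage genes, where none of the 8 was called lower and Fosl1 was called higher. Fos was the most abundant of them by length, at 2728 ± 574 TPM in iron positive and 3331 ± 599 TPM in iron negative libraries (SD, n = 4 each). Fos had 2897, 3465, 3442 and 4788 CPM in the iron positive libraries, against 3731, 4430, 4721 and 5672 CPM in the iron negative libraries. Tag 5L was highest and 3L lowest in each fraction. Fos fell by 0.36 on the log2 scale within tags (SE 0.09, adjusted p = 0.0296). Jun, its main partner, followed the same order of highest and lowest. Jun had 2364, 3116, 2737 and 3729 CPM in the iron positive libraries, against 3053, 3452, 3662 and 4695 CPM in the iron negative libraries. Jun fell by 0.32 on the log2 scale within tags (SE 0.09, adjusted p = 0.0434). Atf3 encodes a factor that dampens inflammatory genes. Atf3 had 1097, 826, 791 and 1386 CPM in the iron positive libraries, against 1582, 1069, 1188 and 1732 CPM in the iron negative libraries. Atf3 fell by 0.45 on the log2 scale within tags (SE 0.08, adjusted p = 0.00979), the smallest adjusted p of the 8.

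Junb and Jund, further JUN proteins, were lower in 4 of 4 tags without passing. Junb gave a log2 fold change of -0.24 (SE 0.07, adjusted p = 0.0573). Jund gave a log2 fold change of -0.24 (SE 0.07, adjusted p = 0.0658). Junb averaged 1785 ± 339 CPM in iron positive and 2096 ± 351 CPM in iron negative libraries (SD, n = 4 each), and Jund averaged 701 ± 90.1 CPM in iron positive and 829 ± 138 CPM in iron negative libraries (SD, n = 4 each). Reads of Junb and its opposite-strand neighbour Prdx2 cannot be told apart where they overlap. Fosb, which averaged 2896 ± 729 CPM in iron positive and 3281 ± 828 CPM in iron negative libraries (SD, n = 4 each), was lower in 3 tags and gave a log2 fold change of -0.18 (adjusted p = 0.247). Fosl2, which encodes a FOS protein without a strong activation domain, averaged 317 ± 95.3 CPM in iron positive and 299 ± 96.7 CPM in iron negative libraries (SD, n = 4 each), and was lower in 1 tag, with a log2 fold change of 0.09 (adjusted p = 0.322). Fosl1 was the rarest AP-1 gene. Fosl1 had 6.78, 5.80, 4.80 and 2.91 CPM in the iron positive libraries, against 1.37, 3.51, 3.27 and 2.13 CPM in the iron negative libraries. It was higher in each tag, most in 3L. Fosl1 gave a log2 fold change of 0.98 (SE 0.32, adjusted p = 0.0750), which did not pass, and 60.4% of its 31-base words belong to the overlapping gene Ccdc85b.

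Among the EGR and NR4A factors, which couple receptor signals to later genes, Egr2, Nr4a1 and Nr4a3 fell within tags and the other 3 did not pass; the median of the 6 was -0.15, which turned to 0.05 under scaling to the macrophage genes. Nr4a1, an orphan nuclear receptor that restrains inflammation in macrophages, averaged 254 ± 129 TPM in iron positive and 303 ± 159.7 TPM in iron negative libraries (SD, n = 4 each), and Egr1, the best known of the EGR genes, averaged 285 ± 99.9 TPM in iron positive and 266 ± 122 TPM in iron negative libraries (SD, n = 4 each), so that Egr1 was the higher by length in the iron positive and Nr4a1 in the iron negative libraries. Nr4a1 had 372, 181, 171 and 547 CPM in the iron positive libraries, against 535, 194, 281 and 736 CPM in the iron negative libraries. Tags 3L and 5L were high and 3R and 4R low in each fraction. Nr4a1 fell by 0.44 on the log2 scale within tags (SE 0.10, adjusted p = 0.0240). Nr4a3 was rare and had the largest fall of all 45 genes. Nr4a3 had 12.0, 3.73, 2.31 and 12.3 CPM in the iron positive libraries, against 25.2, 6.24, 7.39 and 16.9 CPM in the iron negative libraries. Nr4a3 fell by 0.95 on the log2 scale within tags (SE 0.19, adjusted p = 0.0167). Its levels varied 5.32-fold among the iron positive libraries and 4.04-fold among the iron negative libraries. Egr2 was also rare. Egr2 had 15.2, 11.2, 9.20 and 16.9 CPM in the iron positive libraries, against 19.5, 12.2, 14.2 and 21.9 CPM in the iron negative libraries. Egr2 fell by 0.37 on the log2 scale within tags (SE 0.10, adjusted p = 0.0426). Egr1 averaged 719.6 ± 238 CPM in iron positive and 709.9 ± 322 CPM in iron negative libraries (SD, n = 4 each). It was higher in iron positive 3R and 3L and lower in 4R and 5L, and the log2 fold change was 0.07 (SE 0.17, adjusted p = 0.811). Egr3 averaged 6.49 ± 1.69 CPM in iron positive and 5.11 ± 1.20 CPM in iron negative libraries (SD, n = 4 each) and Nr4a2 24.5 ± 11.3 CPM in iron positive and 21.8 ± 8.59 CPM in iron negative libraries (SD, n = 4 each), with adjusted p of 0.285 and 0.320.

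Krüppel-like factors set the resting state of endothelial cells and macrophages, and Klf2 and Klf6 fell within tags, while no KLF gene was called under scaling to the macrophage genes. Klf2 had 602, 748, 822 and 1281 CPM in the iron positive libraries, against 684, 847, 1018 and 1535 CPM in the iron negative libraries. The 4 tags had the same order in each fraction, with 3L lowest and 5L highest. Klf2 fell by 0.23 on the log2 scale within tags (SE 0.07, adjusted p = 0.0451). Klf6 had 1306, 1226, 1257 and 1698 CPM in the iron positive libraries, against 1585, 1440, 1716 and 1961 CPM in the iron negative libraries. Its 5L library stood above the other iron positive libraries. Klf6 fell by 0.29 on the log2 scale within tags (SE 0.08, adjusted p = 0.0371). The calls of Klf2 and Klf6 were lost whichever tag was left out (adjusted p from 0.0751 to 0.173 and from 0.0623 to 0.161). Klf4 averaged 436 ± 74.8 CPM in iron positive and 429 ± 114 CPM in iron negative libraries (SD, n = 4 each) and gave a log2 fold change of 0.04 (SE 0.08, adjusted p = 0.734).

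The IER genes encode small regulators without a common fold, and they split: Ier5 fell, Ier3 rose and Ier2 did not pass. Ier5 is a target of HSF1 and helps to activate it. Ier5 had 592, 468, 469.9 and 808 CPM in the iron positive libraries, against 790.0, 621, 704 and 1021 CPM in the iron negative libraries. Its tags had the same order in each fraction. Ier5 fell by 0.44 on the log2 scale within tags (SE 0.07, adjusted p = 0.00723). The call held without any 1 tag (adjusted p from 0.0146 to 0.0423), and it was lost under scaling to the macrophage genes (-0.23, adjusted p = 0.117). Ier3, which protects cells from death by tumor necrosis factor, was the sole member called higher and the most abundant IER gene by length (446 ± 89.9 TPM in iron positive and 325 ± 34.2 TPM in iron negative libraries (SD, n = 4 each)). Ier3 had 408, 226, 313 and 291 CPM in the iron positive libraries, against 256, 209.7, 205 and 261 CPM in the iron negative libraries. The excess lay mainly in 3L and 4R, where the log2 ratios were 0.67 and 0.61, against 0.11 for 3R and 0.16 for 5L. Ier3 rose by 0.39 on the log2 scale within tags (SE 0.11, adjusted p = 0.0494). This call was lost when 3L, 4R or 5L was left out, and it was kept under scaling to the macrophage genes (0.59, adjusted p = 0.00298). Ier2 averaged 265 ± 79.1 CPM in iron positive and 299.7 ± 99.3 CPM in iron negative libraries (SD, n = 4 each), with a log2 fold change of -0.17 (SE 0.10, adjusted p = 0.262).

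Of the 4 MAP kinase phosphatases, Dusp1 fell and Dusp2, Dusp5 and Dusp6 did not pass; the median of -0.16 became 0.04 under scaling to the macrophage genes. DUSP1 switches off p38 and JNK in the nucleus. Dusp1 had 1984, 2080, 2198 and 2690 CPM in the iron positive libraries, against 2332, 2768, 2809 and 3089 CPM in the iron negative libraries. The order of the tags was shared by the fractions, with 5L on top. Dusp1 fell by 0.30 on the log2 scale within tags (SE 0.08, adjusted p = 0.0407). This call was lost whichever tag was left out (adjusted p from 0.0671 to 0.17). It was also lost under scaling to the macrophage genes (-0.09, adjusted p = 0.480). Dusp1 and its opposite-strand neighbour Ergic1 overlap, which the counts do not resolve. Dusp6, an ERK phosphatase, averaged 501 ± 60.3 CPM in iron positive and 541 ± 73.1 CPM in iron negative libraries (SD, n = 4 each) and was lower in 4 of 4 tags (-0.11, SE 0.06, adjusted p = 0.255). Dusp5 differed 3.62-fold among iron positive and 4.10-fold among iron negative libraries, while its log2 fold change was 0.01 with an SE of 0.07 (adjusted p = 0.957). Dusp2 averaged 101 ± 23.8 CPM in iron positive and 122 ± 44.4 CPM in iron negative libraries (SD, n = 4 each), with an adjusted p of 0.407.

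All 4 regulators of mRNA decay and growth arrest fell within tags, with a median of -0.39, or -0.19 under scaling to the macrophage genes. Under that scaling only Zfp36 kept its call (adjusted p = 0.0468). Of the 4 blocked fits without 1 tag, Zfp36 passed in 3 and Btg2 in 2, and Btg1 and Zfp36l1 passed in none. Zfp36 encodes tristetraprolin, which brings AU-rich mRNA such as that of tumor necrosis factor to decay. Zfp36 had 2194, 2084, 1863 and 2998 CPM in the iron positive libraries, against 3297, 2955, 3124 and 3868 CPM in the iron negative libraries. The fractions overlapped only through the iron positive library of 5L, which lay just above the lowest iron negative library, 3R. Zfp36 fell by 0.55 on the log2 scale within tags (SE 0.09, adjusted p = 0.00921). With the fraction alone the fall was 0.54 (SE 0.16, adjusted p = 0.0600), the nearest of all members to the threshold. Zfp36l1 encodes a related decay factor. Zfp36l1 had 652, 559, 603 and 740.2 CPM in the iron positive libraries, against 825, 669, 709 and 832 CPM in the iron negative libraries. Zfp36l1 fell by 0.25 on the log2 scale within tags (SE 0.06, adjusted p = 0.0335). Btg1 and Btg2 encode antiproliferative proteins that bind the deadenylase complex. Btg1 had 870.3, 650.0, 729 and 985 CPM in the iron positive libraries, against 1045, 822, 841 and 1162 CPM in the iron negative libraries. Btg2 had 568, 504, 405 and 956 CPM in the iron positive libraries, against 844, 632, 739 and 1199 CPM in the iron negative libraries. For both genes 5L was highest in each fraction. Btg1 fell by 0.26 on the log2 scale within tags (SE 0.06, adjusted p = 0.0301). Btg2 fell by 0.52 on the log2 scale within tags (SE 0.10, adjusted p = 0.0161).

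Of the 5 genes that feed back on NF-kB and cytokine signals, 4 fell within tags and Socs3 did not pass; the median of -0.50 was the lowest of any role with more than 1 gene and was -0.30 under scaling to the macrophage genes. Nfkbia encodes IkB-alpha, which holds NF-kB in the cytoplasm. Nfkbia had 641, 554, 553 and 827 CPM in the iron positive libraries, against 899, 701, 936 and 1112 CPM in the iron negative libraries. Only the iron positive library of 5L reached into the iron negative range. Nfkbia fell by 0.50 on the log2 scale within tags (SE 0.09, adjusted p = 0.00947). Nfkbiz encodes IkB-zeta, a nuclear partner that turns on secondary genes such as interleukin 6. Nfkbiz had 531, 539, 544 and 860.1 CPM in the iron positive libraries, against 863, 698, 997 and 1128 CPM in the iron negative libraries. Nfkbiz fell by 0.58 on the log2 scale within tags (SE 0.10, adjusted p = 0.0105). The same library, 5L, stood above the other iron positive libraries for Nfkbiz.

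Tnfaip3 encodes A20, the ubiquitin-editing enzyme that ends signalling from tumor necrosis factor and Toll-like receptors. Tnfaip3 had 576, 464, 521 and 958 CPM in the iron positive libraries, against 888, 870.2, 1218 and 1313 CPM in the iron negative libraries. The difference was largest in 4R, with a log2 ratio of -1.23, and smallest in 5L, with -0.46. Tnfaip3 fell by 0.80 on the log2 scale within tags (SE 0.13, adjusted p = 0.00806). Nfkbia, Nfkbiz and Tnfaip3 stayed past the threshold without any 1 tag, with adjusted p up to 0.043, 0.0498 and 0.0323. Under scaling to the macrophage genes Tnfaip3 kept its call (adjusted p = 0.00785), and Nfkbia and Nfkbiz lost theirs (adjusted p = 0.0930 and 0.0583). Gadd45b, a stress sensor that acts on the MAP kinase cascade, had the smallest SE of the members. Gadd45b had 137, 58.7, 89.5 and 152 CPM in the iron positive libraries, against 181, 68.8, 105 and 179.6 CPM in the iron negative libraries. Gadd45b fell by 0.28 on the log2 scale within tags (SE 0.05, adjusted p = 0.0148). Socs3, which inhibits signalling of the interleukin 6 family, averaged 849 ± 134 CPM in iron positive and 981 ± 102 CPM in iron negative libraries (SD, n = 4 each), and its log2 fold change was -0.22 (SE 0.09, adjusted p = 0.119).

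Levels of the members varied between tags. Within a fraction, the highest library of a member exceeded the lowest by a median of 1.81-fold (iron positive) and 1.77-fold (iron negative), where the same medians over all genes tested were 1.33 and 1.22. Tag 5L was the highest iron positive library for 36 of 45 members and the highest iron negative library for 33 of 45. Over all genes tested, 5L was highest for 2950 of 13343 in the iron positive and 2988 in the iron negative group. The heat shock genes were lowest in 4R for 10 of 12 in the iron positive and 7 of 12 in the iron negative fraction. The order of all 4 tags was the same in the fractions for 13 of 45 members (28.9%), against 9.87% of genes tested. The median SE of the members' fold changes was 0.24 with the fraction alone and 0.09 with the tag as a block, while over all genes it was 0.12 and 0.10.

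**Figure D3:**
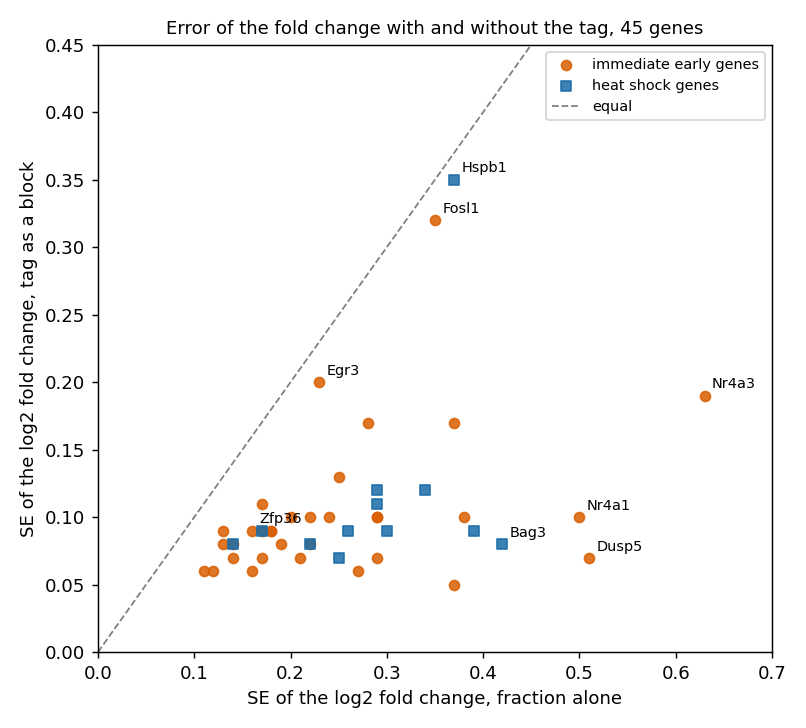
SE of the log2 fold change of each of the 45 genes with the fraction alone (horizontal axis) and with the tag as a block (vertical axis). The dashed line marks equal values. All genes lie below it, with Dusp5 at 0.51 and 0.07 and Nr4a1 at 0.50 and 0.10 far from it, and Fosl1, Hspb1 and Egr3 close to it.

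Markers of other cell types moved with the fraction, and their part in the members' levels was not tested. Of 15 macrophage markers, 6 were lower with the fraction alone and 10 within tags, with a median log2 fold change of -0.32, close to the -0.30 of the members. Csf1r, the receptor of the macrophage growth factor, averaged 1814 ± 246 CPM in iron positive and 2766 ± 83.6 CPM in iron negative libraries. Within tags 12 of the 15 were below 0, and the other 3, named after their values were seen, did not pass: Lyz2 averaged 10712 ± 1929 CPM in iron positive and 9951 ± 432 CPM in iron negative libraries, Mrc1 1189 ± 306 CPM in iron positive and 1101 ± 30.2 CPM in iron negative libraries, and Mertk 184 ± 31.3 CPM in iron positive and 178 ± 9.07 CPM in iron negative libraries. The 13 endothelial markers summed to 228 to 1654 CPM in iron positive and 69.2 to 114 CPM in iron negative libraries, with a median log2 fold change of 4.95. Pericyte and smooth muscle markers were higher for 7 of 10 tested (96.8 to 728 CPM in iron positive and 29.1 to 62.1 CPM in iron negative libraries), and fibroblast and fibrosarcoma markers, given by library above, for 6 of 11. Skeletal muscle markers were higher for 8 of 9 (26.2 to 71.6 CPM in iron positive and 7.78 to 10.6 CPM in iron negative libraries). Neutrophil markers were higher for 3 of 6 (iron positive 203 to 643 CPM, iron negative 91.4 to 119.8 CPM). The 1 mast cell marker tested, Kit, was higher (list sums, iron positive 4.04 to 32.9 CPM, iron negative 0.739 to 1.93 CPM). So was 1 of 5 dendritic cell markers, Zbtb46 (iron positive 5.86 to 11.2 CPM, iron negative 3.61 to 6.63 CPM). Of 5 T and NK cell markers 1, Cd4, was lower (iron positive 19.4 to 25.8 CPM, iron negative 31.6 to 47.2 CPM). So was 1 of 3 B and plasma cell markers, Ighm (iron positive 26.0 to 42.7 CPM, iron negative 56.1 to 73.1 CPM). Each of these 4 calls rests on a single gene. Red cell markers were called within tags alone, 4 of 5 higher (iron positive 41.9 to 212 CPM, iron negative 11.8 to 60.7 CPM), and the 1 epithelial marker tested did not pass (iron positive 2.69 to 4.74 CPM, iron negative 3.30 to 4.60 CPM).

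Defining markers of some of these types were at or near 0. Krt5 was at 0 in all libraries. Ly6g was at 0 in the iron positive libraries, and Fcer1a, Mcpt8 and Mzb1 were at 0 in the iron negative libraries. The endothelial, pericyte and fibroblast sums were highest in the iron positive libraries of 3R and 4R, which were also the libraries with the lowest summed CPM of the heat shock genes, 21034, 18040, 14103 and 28206 CPM in the iron positive fraction, against 33859, 22992, 22236 and 37436 CPM in the iron negative fraction.

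When libraries were scaled to the summed counts of the macrophage markers in place of TMM, an alternative that asks how the members stand relative to macrophage RNA, the median of all genes moved to 0.20 with the block. The members' median became -0.09 in that fit. Abundant markers weigh most in the sum, Lyz2 above all (10712 ± 1929 CPM in iron positive and 9951 ± 432 CPM in iron negative libraries). With the block and TMM the log2 fold change of Lyz2 was 0.09, where the median of the 15 markers was -0.32. Scaling with equal weight for each marker was not tried. A change of scaling moves all genes of a library alike, so the distance between these medians is set by the data and not tested by it. That fit called 6 members lower (1.19% of genes tested) and 3 higher (21.1% of genes tested). Those lower were Nr4a3 (-0.76), Tnfaip3 (-0.60), Hspa1a and Hspa1b (each -0.47), Bag3 (-0.40) and Zfp36 (-0.35), and those higher were Fosl1 (1.19), Hspb1 (1.19) and Ier3 (0.59). By tag, 36 members were lower for 3L, 5 for 3R, 37 for 4R and 36 for 5L, where with TMM these counts were 39, 34, 38 and 39. Of all 13343 genes tested, 4196 were lower for 3L (31.4%), 1067 for 3R, 4706 for 4R (35.3%) and 3668 for 5L (27.5%) under this scaling, where with TMM 49.1% were lower for 3L, 49.3% for 3R, 52.1% for 4R and 53.1% for 5L. The members' median for 3R was 0.24 in place of -0.18, and that of all genes for 3R was 0.42 in place of 0.01. For 3R the iron positive library held 23856 CPM of macrophage markers, against 31974 CPM in the iron negative one, the largest gap of the 4 tags.

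**Figure D4:**
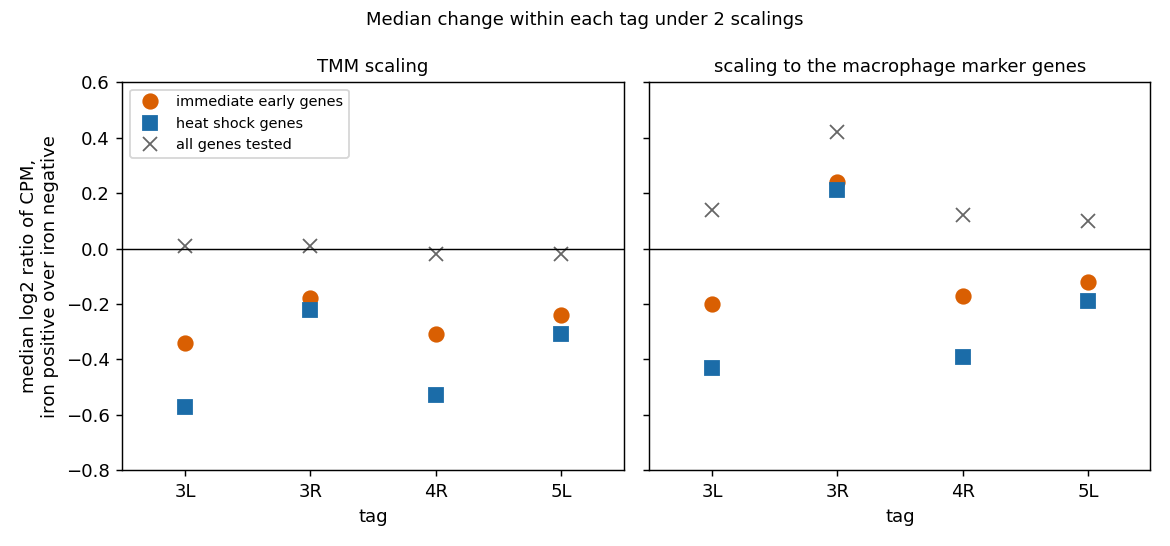
Median log2 ratio of CPM between the iron positive and the iron negative library of each tag (horizontal axis) for the 33 immediate early genes, the 12 heat shock genes and all 13343 genes tested, with TMM scaling (left) and with scaling to the macrophage marker genes (right). The medians of the members lie below that of all genes in each tag, by a distance that the scaling cannot change, and in 3R all medians stand above 0 under the second scaling, at 0.24 and 0.21 for the members and 0.42 for all genes.

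Other genes of the same pathways, from lists chosen for their role, gave a mixed picture. Among 35 other immediate early genes, 4 were higher and none lower with the fraction alone, and 6 were higher and 12 lower within tags. The smallest adjusted p belonged to genes of matrix proteins that smooth muscle, endothelial cells and fibroblasts are known to express: Ccn2 averaged 54.6 ± 46.2 CPM in iron positive and 3.23 ± 1.56 CPM in iron negative libraries, and Ccn1 averaged 281 ± 213 CPM in iron positive and 18.5 ± 9.44 CPM in iron negative libraries, with log2 fold changes of 4.08 and 3.92 (adjusted p = 0.0173 each). Id1 averaged 24.5 ± 13.9 CPM in iron positive and 5.84 ± 1.88 CPM in iron negative libraries (2.07, adjusted p = 0.0242). The smallest adjusted p among those that fell within tags belonged to Ccl4, a macrophage chemokine, which averaged 102 ± 33.2 CPM in iron positive and 145 ± 48.7 CPM in iron negative libraries (-0.51, SE 0.06, adjusted p = 0.00202).

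Of 17 other NF-kB and SOCS feedback genes, 5 were lower and 1 higher with the fraction alone, and 11 were lower and 2 higher within tags, with a median of -0.27 in each fit, which became -0.07 with the block under scaling to the macrophage genes. Relb averaged 42.9 ± 4.98 CPM in iron positive and 56.5 ± 2.77 CPM in iron negative libraries (-0.40, SE 0.09, adjusted p = 0.0238), and Nfkb2, its partner in the alternative NF-kB pathway, averaged 145 ± 19.9 CPM in iron positive and 195 ± 5.55 CPM in iron negative libraries (-0.43, SE 0.10, adjusted p = 0.0264). Gadd45a, unlike Gadd45b, was higher at 34.7 ± 8.11 CPM in iron positive and 18.2 ± 3.02 CPM in iron negative libraries (0.93, SE 0.18, adjusted p = 0.0198). The other dual specificity phosphatases and Sprouty genes, brakes on growth factor signalling, had 3 of 12 higher and none lower, and 5 higher within tags. Spry4 averaged 12.1 ± 8.26 CPM in iron positive and 1.29 ± 0.397 CPM in iron negative libraries (3.22, adjusted p = 0.0177), Spry2 averaged 20.2 ± 2.05 CPM in iron positive and 10.7 ± 2.87 CPM in iron negative libraries (0.91, adjusted p = 0.0216) and Spry1 averaged 18.2 ± 13.1 CPM in iron positive and 4.28 ± 0.687 CPM in iron negative libraries (2.09, adjusted p = 0.0324).

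Among 22 upstream kinases and factors, 1 was higher and 2 were lower with the fraction alone, and 2 were higher and 3 lower within tags. Mrtfb, a partner of serum response factor, averaged 24.1 ± 4.73 CPM in iron positive and 14.0 ± 1.42 CPM in iron negative libraries (0.79, SE 0.15, adjusted p = 0.0183). Rps6ka1, which encodes the ERK-activated kinase RSK1, averaged 180.5 ± 27.7 CPM in iron positive and 259 ± 11.0 CPM in iron negative libraries (-0.52, SE 0.10, adjusted p = 0.0199). Mapk14, the gene of p38 alpha, averaged 171 ± 12.0 CPM in iron positive and 209 ± 6.91 CPM in iron negative libraries (-0.28, SE 0.06, adjusted p = 0.0258). Of 8 other AP-1 and ATF partners, Batf3 was lower with the fraction alone (6.11 ± 1.79 CPM in iron positive and 10.7 ± 0.854 CPM in iron negative libraries; -0.81, adjusted p = 0.0449), and 2 were lower within tags. Of 7 other KLF genes, Klf9 was higher (16.7 ± 4.57 CPM in iron positive and 8.33 ± 0.823 CPM in iron negative libraries; 1.01, adjusted p = 0.0183), and 1 was higher and 1 lower within tags.

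Chaperones outside the member list were called lower only within tags. Of all genes tested, 9.39% were lower within tags and 5.21% with the fraction alone. Lists this small are not set apart from those shares by few or no calls. None of the 4 genes for heat shock factors and their binding protein was called in either fit. Hsf1, the factor that drives heat shock genes, averaged 37.6 ± 1.98 CPM in iron positive and 37.7 ± 3.51 CPM in iron negative libraries, with a log2 fold change of -0.00 (SE 0.08, adjusted p = 0.996). Hsbp1 averaged 101 ± 12.9 CPM in iron positive and 95.8 ± 5.11 CPM in iron negative libraries (0.08, SE 0.09, adjusted p = 0.621). Of 24 other cytosolic chaperones tested of 25 listed, 4 were higher and none lower, and 3 were higher within tags. These include Hspb7 (1.02 ± 0.478 CPM in iron positive and 0.137 ± 0.0975 CPM in iron negative libraries; 2.85, adjusted p = 0.0185), Dnaja4 (11.6 ± 3.02 CPM in iron positive and 4.30 ± 1.84 CPM in iron negative libraries; 1.43, adjusted p = 0.0260) and Hspb8 (4.05 ± 3.17 CPM in iron positive and 0.629 ± 0.220 CPM in iron negative libraries; 2.68, adjusted p = 0.0301), and the HSPB7 and HSPB8 proteins are best known from muscle. None of the 8 CCT chaperonin genes was called, and Cct2 averaged 215 ± 7.85 CPM in iron positive and 230.3 ± 12.8 CPM in iron negative libraries. Of 17 chaperones of the endoplasmic reticulum and mitochondria none was called with the fraction alone, and Hspa5 (-0.30, adjusted p = 0.0413) and Sdf2l1 (-0.32, adjusted p = 0.0129) fell within tags.

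The transcripts of some members also shifted within the gene. Of the estimated counts of Zfp36, the longer coding transcript Zfp36-201 held 63.3 ± 5.82% in iron positive and 72.3 ± 4.55% in iron negative libraries, lower in each of the 4 tags. Hsp90aa1-202 held 62.5 ± 2.86% of its gene in iron positive and 71.0 ± 1.91% in iron negative libraries (SD, n = 4 each), also lower in each tag. Transcripts annotated as retained introns exist for 16 members, and their share was higher in the iron positive library of all 4 tags for Dusp1, Fosb, Hspa8, Nfkbia and Nr4a1. For Nr4a1 it was 3.34 ± 1.10% in iron positive and 1.30 ± 0.347% in iron negative libraries, and for Dusp1 it was 6.61 ± 1.09% in iron positive and 4.85 ± 0.573% in iron negative libraries. For no member was the share lower in all 4 tags. These shares are kallisto's estimates among overlapping transcripts, and no test was made of them. No such shares were worked out for genes outside the list, so whether the members differ from other genes in this was not tested.

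Among 10118 genes outside the list that averaged 5 CPM or more, the pattern most like that of Zfp36 over the 8 libraries was that of Pwp1 (Pearson r = 0.993 of log2 CPM), and Il10ra (0.987), Pom121 (0.986) and Casp8ap2 (0.983) were among the nearest. Il10ra, which encodes the receptor of interleukin 10, fell within tags (-0.53, adjusted p = 0.00906). These values describe the 8 libraries, which differ in fraction, tag and depth, and they carry no test.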

How the data were processed

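The authors quantified each library with kallisto 0.46.2 on mm10, as the submitters' processing notes say. Which transcript release they used is not given here. Per the file headers, the deposited tables give 1 row per transcript with estimated counts (not normalized) and TPM, which the authors' run scaled for effective length and library total, besides other values (length and effective length). Of 119414 transcripts, 116728 matched GENCODE release 21 (GRCm38) by identifier, and 2686 (0.888 to 0.961% of counts) did not and were left out.

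For 35975 genes the counts of all transcripts were added up, without regard to strand, and rounded. filterByExpr kept 13343 genes. The main test was edgeR 4.0.16 (R 4.3.3), quasi-likelihood, TMM scaling, on the fraction alone, with a Benjamini-Hochberg adjusted p under 0.05 over all genes as the threshold; DESeq2 1.42.0 and limma 3.58.1 on log2(TPM + 1) were alternatives. SEs are the coefficient divided by the square root of F. The precision of a value is its SD over 4 libraries or its SE. Same-tag deviations from the fraction means correlated at 0.53 (3L), 0.52 (3R), 0.27 (4R) and 0.30 (5L), all above the limit of 0.1. Correlations of unlike tags reached 0.26 (iron positive 4R with iron negative 3R), so this limit does not separate equal from unlike tags. Each iron positive library correlated most with its own tag, by little for 4R. The pairing thus rests mainly on the shared labels, and the blocked value stands beside results it changes. No replicates agreed within counting noise (chi-square per gene of 9.38 to 112). The fit on the fraction alone was tested on simulated data without a tag effect. The blocked fit was not tested in this way.

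The members and lists were chosen with earlier results of these data known. Every member was accounted for. Library values are given for members past the threshold in either fit and for the highest by TPM in each role. From each list came at most 3 genes past the threshold, those of smallest adjusted p, or else the 2 of highest mean CPM. The lists were read in each fit, and the genes most like Zfp36, the member of smallest adjusted p, by their correlation; some of the genes so chosen are not reported here.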

Additional observations from a re-analysis of the deposited data

Results flagged for a closer look

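Each fraction of each member was searched for a library that stands apart from the other 3, and 3 of 90 such searches found one, where chance gives about 1 in 20. In iron positive libraries, Klf6 was highest in 5L, at 1698 CPM, and the other 3 ranged from 1226 to 1306 CPM. Nfkbiz was highest in the iron positive library of 5L, at 860.1 CPM, where the others had 531 to 544 CPM. Socs3 was lowest in the iron positive library of 3L, at 649 CPM, and had 895 to 926 CPM in the others.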

How the results depend on the processing

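Over 25 alternatives, 871 of 1125 member values kept their direction and side of the threshold, 215 passed it only under the alternative and 39 changed sign, all in 10 members, of which only Klf2 passed with the block. With the fraction alone, members called lower stayed at 0 except with DESeq2 (4) and ranged from 0 to 7 with 1 library left out, the 7 without iron positive 5L; members called higher were 1 with DESeq2 and with macrophage scaling, and 0 to 1 with 1 library left out. All genes called higher (1133) became 1703 with DESeq2 and 413 with limma on TPM, and those called lower (695) became 1070, 205, 362 with library totals and 17 with macrophage scaling. Leaving out 1 library gave 0 to 1487 genes higher and 0 to 979 lower: 0 and 0 when the iron negative library of 3L, 3R or 4R was left out, 26 and 12 without iron negative 5L, and 399 and 214 without iron positive 4R. The replicate block gave 1705 genes higher and 1253 lower, with 1 and 28 members. With the block and relative log expression scaling these were 1726, 1197, 1 and 27, with library totals 1975, 676, 1 and 17, with macrophage scaling 2811, 159, 3 and 6, with protein coding transcripts 1593, 1032, 1 and 26, and with DESeq2 1777, 1140, 2 and 30. With the block and 1 tag left out, genes higher were 1228 (3L), 1562 (3R), 723 (4R) and 1621 (5L), genes lower 314, 811, 219 and 979, members higher 1, 1, 0 and 0, and members lower 8, 23, 6 and 17; fewer samples enter these fits, and no other cause was tested.

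Signs changed as follows. Macrophage scaling gave 0.03 for Fosb, 0.05 for Ier2, 0.13 for Dusp5, 0.10 for Dusp6 and 0.01 for Socs3, and with the block 0.03 for Fosb and Ier2, 0.21 for Dusp5 and 0.10 for Dusp6. Dusp5 was 0.01 with library totals, 0.06 with limma on TPM, 0.01 with the block alone, with relative log expression and with DESeq2, 0.06 with the block and totals, 0.02 with protein coding transcripts, and 0.08 and 0.02 without tags 3L and 3R. Dusp6 was 0.01 with limma. Without tag 3R the block gave -0.14 for Egr1 and -0.02 for Klf4. With 1 library left out, log2 fold changes ran from -0.13 to 0.29 for Fosl2, -0.20 to 0.28 for Egr1, -0.12 to 0.37 for Nr4a2, -0.50 to 0.02 for Klf2, -0.10 to 0.19 for Klf4, -0.35 to 0.01 for Ier2 and -0.40 to 0.44 for Dusp5. Depth limits the rare members, Fosl1, Egr3 and Nr4a3. These alternatives with the block and another choice together were added after seeing the data.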
